A study of Mus musculus with 4 samples.

Results

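Solute carriers are membrane proteins that move sugars, amino acids, ions, metals, nucleotides and organic acids across the plasma membrane or the membranes of organelles. They work as exchangers, cotransporters or facilitated carriers and, unlike pumps, do not split ATP themselves. Families are numbered by sequence, and the number gives the usual cargo: Slc39 and Slc30 carry zinc and related metals into and out of the cytosol, Slc25 holds the carriers of mitochondria, and Slc12 moves chloride with sodium or potassium. In the embryonic heart they feed a muscle that beats while it grows and a mesenchyme that is laying down matrix.

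The 161 genes described here were chosen by symbol and by signal. Their probe sets had 1 annotated symbol that starts with Slc and a digit, and a mean deposited intensity of at least 30 over the 4 arrays. Slc4a1, Slc25a37, Slc2a1, Slc2a3 and Slc8a1 were left out by name. Each gene was read by the probe set with the highest mean. The array carried 262 such genes, of which 257 remained after those 5 were left out, and 96 of these lay below 30. The mean over all arrays chose the members, and no difference between the regions was used. Just inside the limit were Slc2a10 (30.05) and Slc22a26 (30.35), and just outside were Slc34a1 (29.725) and Slc16a4 (28.9). Not every member is itself a carrier: Slc9a3r1 and Slc9a3r2 encode scaffolds that bind a proton exchanger, Slc4a1ap encodes an adaptor protein, and Slc3a1 and Slc3a2 encode the heavy chains that bring amino acid carriers to the cell surface.

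RNA came from wild-type C57BL/6 mouse hearts at embryonic day 10.5 to 11.0, dissected into the atrioventricular (AV) junction, where the valve cushions form, and the ventricular region. Tissue of about 80 hearts was pooled for each region, so no value below measures the spread between hearts. The RNA (230 ng for the AV junction, 250 ng for the ventricular region) was amplified, labelled and read on 2 Affymetrix MOE430A arrays per region, named 1a and 1b. Nothing in the sources used here says that 1a and 1b came from separate dissections, and p-values cover only the spread between these arrays, which may be technical. Intensities are in arbitrary units after scaling each array to a trimmed mean of 500, and a log2 fold is the AV junction value minus the ventricular one after adding 50.

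The regions carried the marker genes of their labels. The 4 AV canal genes tested (Tbx2, Tbx3, Bmp2, Msx2) were all higher in the AV junction, with a summed level of 3043 to 3242 on AV arrays against 460.5 to 480.8 on ventricular arrays. Of 7 ventricular muscle genes 6 were lower in the AV junction (20824 to 21876 against 70739 to 73877), and 7 of 8 cushion mesenchyme genes were higher (6909 to 8565 against 1233 to 1479.7). Transcripts of other tissues moved with region too. Of 13 erythroid genes 9 were lower in the AV junction (42636 to 44122 against 81206 to 87596), and 4 of 5 tested genes of liver or yolk sac endoderm were higher. The 9 genes of that list on the array, tested or not, summed to 7399 to 7746 on AV arrays against 626.8 to 680.9 on ventricular arrays. In that list 1 gene, Fgb, read below the brightest Bacillus subtilis control on all 4 arrays, and in the erythroid list 0 did. Of 4 atrial genes tested 4 were higher, and in the endothelial, epicardial and neural lists 1 of 5 was higher, 1 of 6 lower and 0 of 2 passed. The part of these cells in the results below was not tested.

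A small share of solute carrier genes differed between the regions beyond the spread between arrays, the largest fold being that of the zinc importer Slc39a6. With limma, adjusted over all 13403 probe sets tested, 6 of the 161 had a higher signal in the AV junction and 10 a lower one at an adjusted p of at most 0.05, and 145 did not pass. Those shares are 3.73% and 6.21%, and over all 8410 genes tested they were 8.47% higher and 6.56% lower. In the whole tissue that was hybridised, fewer cells of a type and less RNA per cell cannot be told apart. With 2 arrays a region, the smallest two-sided p of an exact permutation test is 0.333. Leaving out 1 array left between 4 and 5 higher members and between 1 (without either ventricular array) and 5 lower ones (4 without AV array 1a, 5 without AV array 1b).

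The median fold of the family lay below that of all genes. The members' median log2 fold was −0.21, against −0.06 over all genes tested, and 116 of 161 (72.0%) were below 0, against 55.2% of all genes. Both AV arrays lay above both ventricular arrays for 25 members (15.5%) and below them for 77 (47.8%). Over all genes these shares were 27.7% and 34.7%. The median stayed between −0.25 and −0.15 when any 1 array was left out, and was −0.13 after quantile normalisation and −0.16 after median scaling. The transporter genes were dim on these arrays, and the dimmer bins of all genes had medians below 0 as well. Split by mean intensity into 5 equal bins of all genes, a split added after the values were seen, 42 members fell in the dimmest bin and 12 in the brightest. From dimmest to brightest, 0 of 42, 4 of 50, 6 of 36, 2 of 21 and 4 of 12 members passed, where 3.27%, 8.03%, 13.6%, 20.9% and 29.4% of all genes did. The members' median log2 fold in those bins was −0.28, −0.26, −0.26, −0.04 and −0.17, and that of all genes −0.22, −0.15, −0.03, 0.05 and 0.05.

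**Figure D1:**
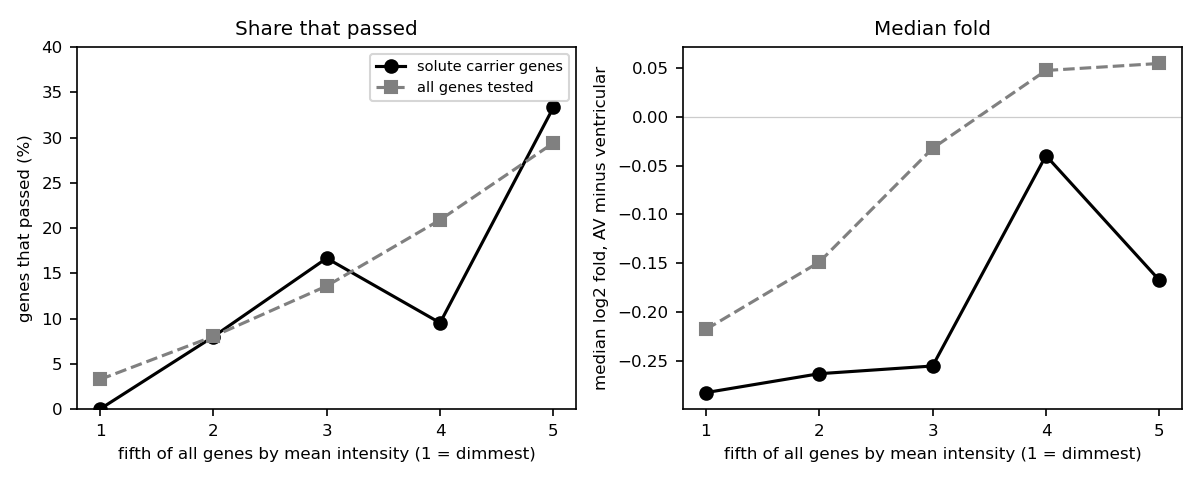
Share of genes that passed (left, percent) and median log2 fold, AV junction minus ventricular region (right), by bin of mean intensity, for the 161 solute carrier genes (black) and all 8410 genes tested (grey); the bins hold 42, 50, 36, 21 and 12 members. The shares run close together in the dimmest 3 bins, while the members' median is below that of all genes in each bin.

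The 16 genes that passed carry different cargo. The higher ones were the metal carriers Slc39a6, Slc39a8 and Slc30a7, the cation exchanger Slc24a3, the chloride cotransporter Slc12a2 and the choline transporter-like gene Slc44a2. The lower ones were Slc22a23, Slc10a6, Slc22a5, Slc14a2, Slc27a4, Slc39a14, Slc7a4, Slc20a1, Slc37a4 and Slc25a39. Those past 2-fold were Slc39a6 and Slc24a3 among the higher and Slc22a23 and Slc10a6 among the lower. All 16 read above background on all 4 arrays, background being the brightest probe set for a Bacillus subtilis control. In the AV junction that control read 58.6 and 52.6, and in the ventricular region 97.9 and 104.3.

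**Figure D2:**
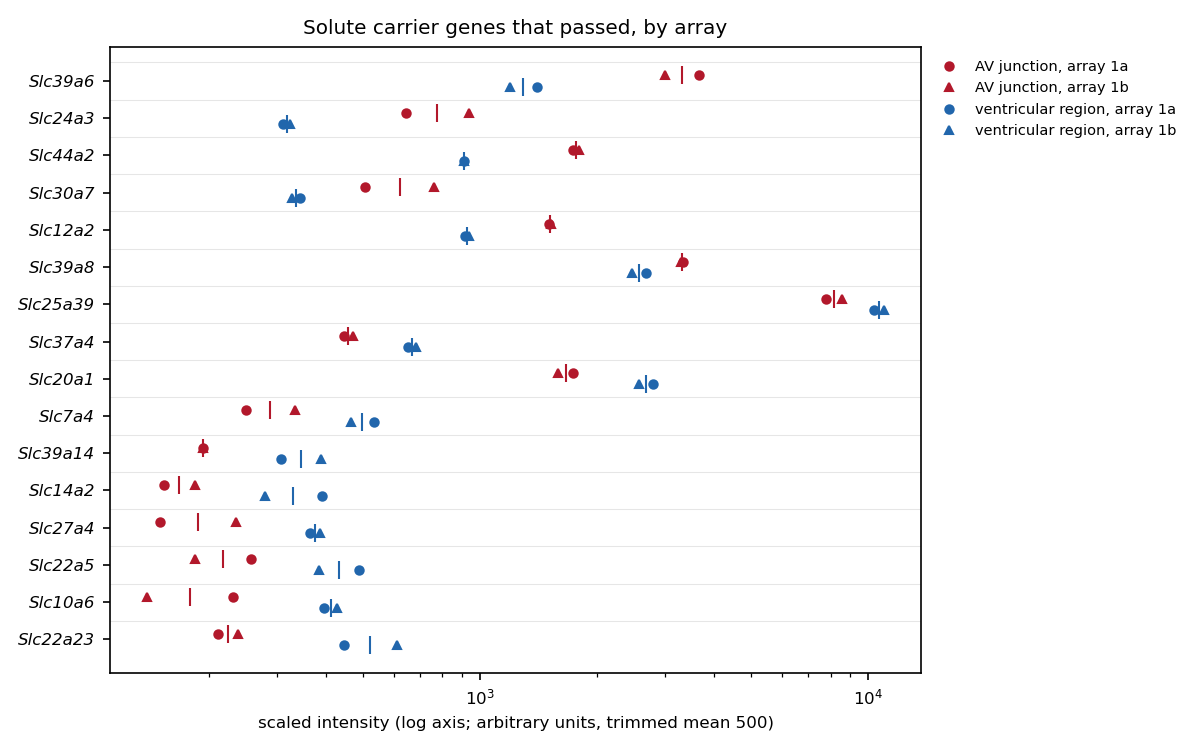
Scaled intensity (log axis, arbitrary units) of the 16 solute carrier genes that passed, in order of log2 fold. Circles are array 1a, triangles array 1b and bars the geometric mean of 2 arrays, AV junction above and ventricular region below in each row; in no row do the regions overlap.

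**Figure D3:**
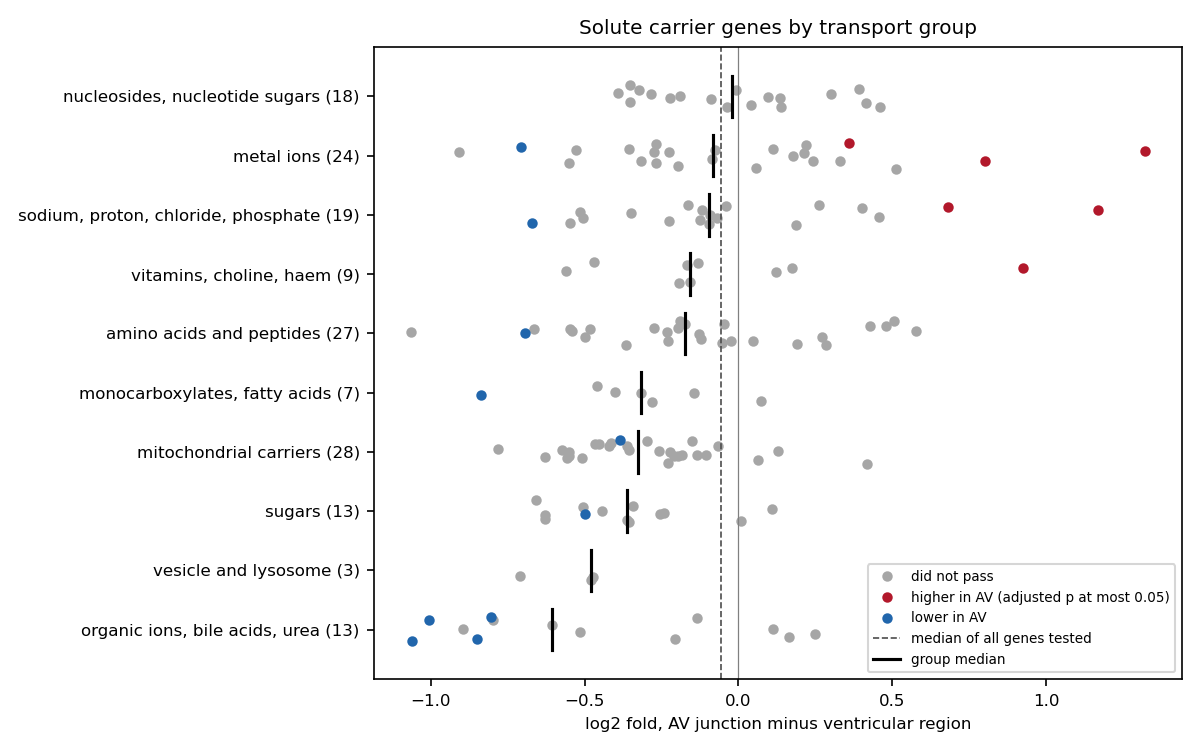
Log2 fold, AV junction minus ventricular region, of each of the 161 genes, in 10 groups by cargo with the number of genes in brackets; vertical bars are group medians and the dashed line is the median of all genes tested. The 6 higher genes lie in the groups of metal ions, of sodium, proton, chloride and phosphate, and of vitamins and choline.

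Metal carriers held 3 of the 6 higher genes. Of 24 members in this group 3 (12.5%) were higher, 1 (4.17%) was lower and 20 did not pass. Over all genes 8.47% were higher and 6.56% lower. The group's median log2 fold was −0.08. The median was −0.03 without AV array 1a, −0.02 without ventricular array 1a and 0.03 after quantile normalisation, where 2 were higher and 0 lower. Without AV array 1a 2 were higher and 0 lower, and without any other array 1 was higher and 0 lower. Slc39a6, a zinc importer that in zebrafish is needed for cell migration in the gastrula, gave 3671 and 2989 in the AV junction, against 1401 and 1195 in the ventricular region. Its lowest AV array was more than 2-fold above its highest ventricular array, and the fitted fold was 2.50 (log2 fold 1.32, SE 0.13, adjusted p = 0.00148). A second, dim probe set of Slc39a6 did not show this, with 158 and 224 in the AV junction against 235 and 278 in the ventricular region (log2 fold −0.36, adjusted p = 0.287). With both probe sets averaged the log2 fold was 0.48 and still passed.

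Slc39a8 and Slc39a14 encode close relatives that bring zinc, manganese and iron into cells, and their folds had opposite signs. In mice, loss of Slc39a8 disturbs compaction of the ventricular wall. It read 3327 and 3295 in the AV junction, against 2679 and 2466 in the ventricular region (log2 fold 0.36, SE 0.10, adjusted p = 0.0472). The arrays of a region lay close together, and the fold was 1.28. A second probe set of Slc39a8 read the other way, with 27.8 and 29.2 against 62.0 and 93.9 in the ventricular region. That probe set was above background on no array and too dim to be tested. Slc39a14 read 193.01 and 193.06 in the AV junction, against 307 and 390.0 in the ventricular region (log2 fold −0.71, adjusted p = 0.0446), and its second probe set gave −0.76 without passing (adjusted p = 0.0779). Both genes missed the threshold whichever of the 4 arrays was left out (the highest adjusted p was 0.194 for Slc39a8 and 0.199 for Slc39a14) and after quantile normalisation, and Slc39a14 also after median scaling. The difference between their folds was not tested.

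Of the 7 zinc exporter genes 1 (14.3%, against 8.47% of all genes) was higher and 6 did not pass. Slc30a7, which loads zinc into the Golgi, read 505 and 763 in the AV junction, against 344 and 327 in the ventricular region (log2 fold 0.80, SE 0.20, adjusted p = 0.0376). Its AV arrays stood apart from each other, and it passed only without AV array 1a (adjusted p up to 0.138 without another array). Slc30a5 and Slc30a6, whose proteins pair with each other in the same secretory compartments, did not pass, at log2 folds of −0.32 and −0.27. Among all 17 genes of Slc39 and Slc30 the log2 folds ran between −0.91 for Slc39a4 and 1.32 for Slc39a6. Slc39a4, the zinc importer of gut and visceral yolk sac, read 32.2 and 91.2 in the AV junction, against 121 and 190 in the ventricular region (adjusted p = 0.124), with 1 AV array above background. Neither Slc30a9 nor Slc41a3, the brightest metal genes short of the threshold, passed (log2 fold −0.23, adjusted p = 0.19, and log2 fold −0.36, adjusted p = 0.0715). Slc40a1, the iron exporter, and Slc11a2, an iron importer of the endosome, gave −0.20 and −0.55 without passing, on arrays where the erythroid genes were lower.

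**Figure D4:**
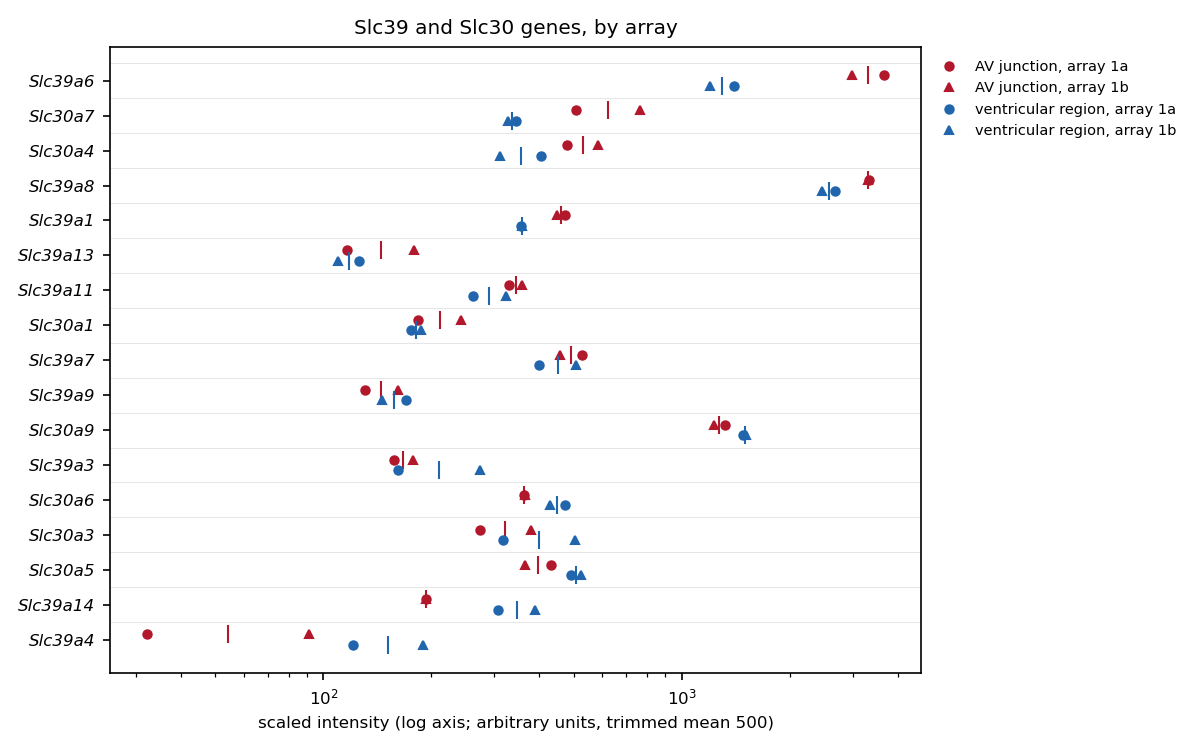
Scaled intensity (log axis, arbitrary units) of the 17 Slc39 and Slc30 genes in order of log2 fold; circles are array 1a, triangles array 1b and bars the geometric mean of 2 arrays, AV junction above and ventricular region below. Slc39a6 is the gene with the widest gap above, and Slc39a14 and Slc39a4 lie at the low end.

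Carriers of sodium, protons, chloride, bicarbonate and phosphate went both ways. Of 19 members 2 (10.5%) were higher, 1 (5.26%) was lower and 16 did not pass. Among all genes 8.47% were higher and 6.56% lower. The group's median log2 fold was −0.10. The median was −0.05 after median scaling and without AV array 1a, and −0.04 without ventricular array 1b. It was −0.13 without AV array 1b and −0.14 without ventricular array 1a. Slc24a3, an exchanger that trades calcium and potassium for sodium at the plasma membrane, read 645 and 935 in the AV junction, against 311 and 324 in the ventricular region. The AV arrays differed from each other by more than the ventricular ones, and the fold was 2.25 (log2 fold 1.17, SE 0.19, adjusted p = 0.00887). The log2 fold was 0.92 without AV array 1b and 1.42 without AV array 1a and passed in both fits.

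Slc12a2, the cotransporter that loads cells with sodium, potassium and chloride, read 1505 and 1525 in the AV junction, against 915.9 and 936.7 in the ventricular region. The pairs of arrays were tight and apart (log2 fold 0.68, SE 0.11, adjusted p = 0.00808). Its relatives Slc12a4, Slc12a5 and Slc12a7, which carry potassium and chloride out of cells, had log2 folds of −0.51, −0.16 and −0.04, and none passed. Slc20a1, a sodium-driven phosphate importer, read 1741 and 1591 in the AV junction, against 2795 and 2572 in the ventricular region (log2 fold −0.67, SE 0.10, adjusted p = 0.00812). Without ventricular array 1a its adjusted p was 0.0558. Slc20a2, the other phosphate importer of that family, had a log2 fold of −0.09 (adjusted p = 0.728). Slc9a3r1, the scaffold gene, read 783 and 789 in the AV junction, against 739.6 and 1004 in the ventricular region, and did not pass (log2 fold −0.13). The bicarbonate exchanger genes Slc4a2 and Slc4a3 gave −0.10 and −0.23, and neither passed.

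Carriers of vitamins, choline and haem held 1 of the higher genes. Slc44a2, a choline transporter-like protein, read 1738 and 1804 in the AV junction and 909.6 on both ventricular arrays (log2 fold 0.92, SE 0.10, adjusted p = 0.00233). The 1.90-fold difference was far wider than the spread within either region. The probe set is of the _x_at kind, which can also match other transcripts, and the other 2 probe sets of Slc44a2 were too dim to be tested. Slc44a1, the plasma membrane choline carrier, had a log2 fold of 0.17 (adjusted p = 0.391), and its second probe set gave −0.37. Over the 9 members for vitamins, choline and haem 1 (11.1%, against 8.47% of all genes) was higher and 8 did not pass. The folate carrier gene Slc19a1 read 472 and 631 in the AV junction, against 690.3 and 549 in the ventricular region, and did not pass (adjusted p = 0.575).

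Slc39a6, Slc12a2, Slc24a3 and Slc44a2 were the 4 members that passed whichever array was left out, and no lower member did. Slc20a1 and Slc22a23 passed in 3 of those 4 fits, the most among lower members. Promoters of 4 of these, from RefSeq's table (GRCm38.p6), are shown because these calls rest least on a single array. None is printed for Slc39a6 and Slc12a2. Each line ends at the base before the annotated start or, for Slc22a23, before the outermost annotated start. They lie at chr2:145167525-145167774 (plus strand, Slc24a3), chr9:21320469-21320718 (plus strand, Slc44a2), chr2:129198523-129198772 (plus strand, Slc20a1) and chr13:34345276-34345468 (minus strand, Slc22a23). Capitals mark matches on either strand to GGGCGG (the GC box) and to TGCACNC or TGCGCNC (the core of the metal response element), written in the order of the gene's strand.
Slc24a3: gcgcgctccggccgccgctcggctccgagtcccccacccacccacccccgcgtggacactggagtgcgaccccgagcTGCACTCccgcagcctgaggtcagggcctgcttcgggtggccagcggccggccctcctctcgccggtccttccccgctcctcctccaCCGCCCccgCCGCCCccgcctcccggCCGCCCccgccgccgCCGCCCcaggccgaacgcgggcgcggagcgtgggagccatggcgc
Slc44a2: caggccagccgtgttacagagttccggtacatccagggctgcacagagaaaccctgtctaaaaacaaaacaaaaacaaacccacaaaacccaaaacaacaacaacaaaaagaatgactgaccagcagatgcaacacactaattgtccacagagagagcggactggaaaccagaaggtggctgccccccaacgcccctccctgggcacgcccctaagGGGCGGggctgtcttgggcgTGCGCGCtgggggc
Slc20a1: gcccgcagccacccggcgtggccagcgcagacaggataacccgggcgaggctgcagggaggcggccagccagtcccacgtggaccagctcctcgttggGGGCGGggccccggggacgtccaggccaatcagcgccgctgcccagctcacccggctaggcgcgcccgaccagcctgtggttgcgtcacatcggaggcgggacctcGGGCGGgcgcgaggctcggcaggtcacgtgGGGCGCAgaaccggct
Slc22a23: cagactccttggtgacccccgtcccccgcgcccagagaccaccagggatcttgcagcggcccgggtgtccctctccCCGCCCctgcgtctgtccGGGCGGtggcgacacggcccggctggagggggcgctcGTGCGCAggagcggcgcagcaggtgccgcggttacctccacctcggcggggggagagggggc

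The promoters held both motifs, whether the gene was higher or lower in the AV junction. Slc24a3 had 4 GC boxes, Slc44a2 had 1, and Slc20a1 and Slc22a23 had 2 each. Each of the 4 had 1 core of the metal response element. Over the 250 bases before the start, 65.0% of the 123 members in the table held a GC box and 34.1% a metal response core. Among 6838 tested genes in the table the shares were 59.1% and 30.2%, and among all 27025 promoters 32.7% and 21.3%. TATAAA stood in 5.69% of member promoters against 6.99% of tested genes, and motifs of GATA factors (AGATAA or else TGATAA) in 8.13% against 9.05%. AGGTGTGA, a T-box motif, was in 0 of 123 member promoters and in 0.614% of those of tested genes. No matches overlap in the 4 promoters shown, and a match is a description of sequence alone.

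Carriers of organic ions, bile acids and urea held 4 of the 10 lower genes. Of 13 members 0 were higher, 4 (30.8%, against 6.56% of all genes) were lower and 9 did not pass. The median log2 fold was −0.61. It was −0.35 without ventricular array 1b and −0.70 without ventricular array 1a, and −0.38 with a pseudocount of 200 and −0.76 with a pseudocount of 1. Slc22a5, which brings carnitine into cells for the burning of fatty acids, read 256 and 185 in the AV junction, against 488 and 384 in the ventricular region (log2 fold −0.85, SE 0.20, adjusted p = 0.0338). Slc22a23, a relative without a settled cargo, read 211 and 238 against 446 and 610.1 in the ventricular region. That is 2.09-fold lower in the AV junction (log2 fold −1.06, SE 0.19, adjusted p = 0.0124), with an adjusted p of 0.0734 without ventricular array 1b.

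Slc10a6, an importer of sulphated steroids, read 232 and 138 in the AV junction, against 397 and 428 in the ventricular region (2.01-fold lower, adjusted p = 0.0269). Slc14a2, the urea carrier known from kidney, read 153 and 184 against 392 and 279 in the ventricular region (log2 fold −0.80, adjusted p = 0.0458). Slc14a2 missed whichever array was left out, Slc22a5 and Slc10a6 without AV array 1b or either ventricular array, and the second probe set of Slc14a2 gave −0.56 without passing. No member of the group passed without ventricular array 1b, and 1 passed without ventricular array 1a. Neither Slc47a1, an exporter of organic cations (log2 fold −0.21), nor Slc22a17, a receptor for a lipocalin (0.11), passed.

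Carriers of sugars and fatty acids included 2 lower genes and 0 higher ones, and 1 lower gene after quantile normalisation or median scaling. Slc27a4, a fatty acid transport protein that also activates fatty acids with coenzyme A, read 149 and 235 in the AV junction, against 364 and 387 in the ventricular region (log2 fold −0.84, SE 0.21, adjusted p = 0.0416). It missed after quantile normalisation and, in fits that left out 1 array, passed only without AV array 1b (adjusted p up to 0.152 without another array). Slc37a4, which takes glucose 6-phosphate into the endoplasmic reticulum, read 445 and 471 against 652.8 and 684 in the ventricular region (log2 fold −0.50, adjusted p = 0.0447, up to 0.165 and passing in no fit that left out 1 array, nor after median scaling). The lactate and pyruvate carrier genes Slc16a1 and Slc16a3 gave −0.46 and −0.28, and Slc16a6 −0.32, without passing. Slc2a4, the insulin-regulated glucose carrier of muscle, read 228 and 258 in the AV junction, against 315 and 383 in the ventricular region, which did not pass either (log2 fold −0.44, adjusted p = 0.136). Of 13 sugar family members 1 (7.69%, against 6.56% of all genes) was lower and 12 did not pass. Their median was −0.36 (−0.52 without AV array 1b, and −0.23 without AV array 1a and with a pseudocount of 200). Slc50a1, a sugar exporter, and Slc2a8, an intracellular glucose carrier, had log2 folds of −0.24 and 0.01, and neither passed. By family number this group includes Slc5a6, a vitamin carrier. Of 7 members for monocarboxylates and fatty acids 1 (14.3%, against 6.56% of all genes) was lower and 6 did not pass. Their median was −0.32 (−0.21 with a pseudocount of 200 and −0.45 without ventricular array 1a).

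Mitochondrial carriers leaned to the ventricular side in small steps. Of 28 Slc25 genes 25 (89.3%) had a log2 fold below 0, against 55.2% of all genes. For 21 (75.0%) both AV arrays lay below both ventricular arrays, where 34.7% of all genes did. In the other cargo groups that share ran between 22.2% (nucleosides and nucleotide sugars) and 71.4% (monocarboxylates and fatty acids), with 69.2% for sugars and 61.5% for organic ions. The median log2 fold of the 28 was −0.33, with a range between −0.78 and 0.42. Of the 28 genes 1 passed (3.57%, against 15% of all genes). With any 1 array left out the median lay between −0.31 and −0.28, with 23 to 26 genes below 0. After quantile normalisation it was −0.29 with 21 of 28 below 0, and after median scaling −0.28 with 25 of 28. The gene that passed was Slc25a39, which brings glutathione into mitochondria and is needed for haem synthesis in red cells. It read 7778 and 8543 in the AV junction, against 10324 and 11008 in the ventricular region (log2 fold −0.39, SE 0.09, adjusted p = 0.0354). It missed whichever array was left out (adjusted p up to 0.161) and after median scaling, where no mitochondrial carrier passed. Its other 2 probe sets gave −0.62 and −0.21 and did not pass, and the erythroid genes were lower on the same AV arrays.

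Core carriers of oxidative phosphorylation did not pass on the probe sets reported. Slc25a4, the exchanger of ADP for ATP in muscle, read 18091 and 19445 in the AV junction, against 19753 and 21443 in the ventricular region (log2 fold −0.13, adjusted p = 0.355). Its other 3 probe sets tested gave log2 folds of −0.25, −0.03 and 0.24, the last with 8205 and 6705 in the AV junction against 6458 and 6097 in the ventricular region, and none passed. Slc25a3, the phosphate carrier, read 21770.4 and 25890 against 24941 and 29204, with overlap (log2 fold −0.18, adjusted p = 0.328). After quantile normalisation the log2 folds of Slc25a4 and Slc25a3 were 0.06 and 0.04. Slc25a5, the exchanger of dividing cells, gave −0.23, and 1 of its 7 other probe sets tested passed (log2 fold −0.54, adjusted p = 0.0247). The carnitine carrier gene Slc25a20 had a log2 fold of 0.13, and Slc25a38, the glycine carrier that starts haem synthesis in red cells, −0.57, and neither passed. Slc25a13, the aspartate and glutamate exchanger, had the lowest value at −0.78 (adjusted p = 0.0666), and Slc25a14, an uncoupling protein, the highest at 0.42.

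**Figure D5:**
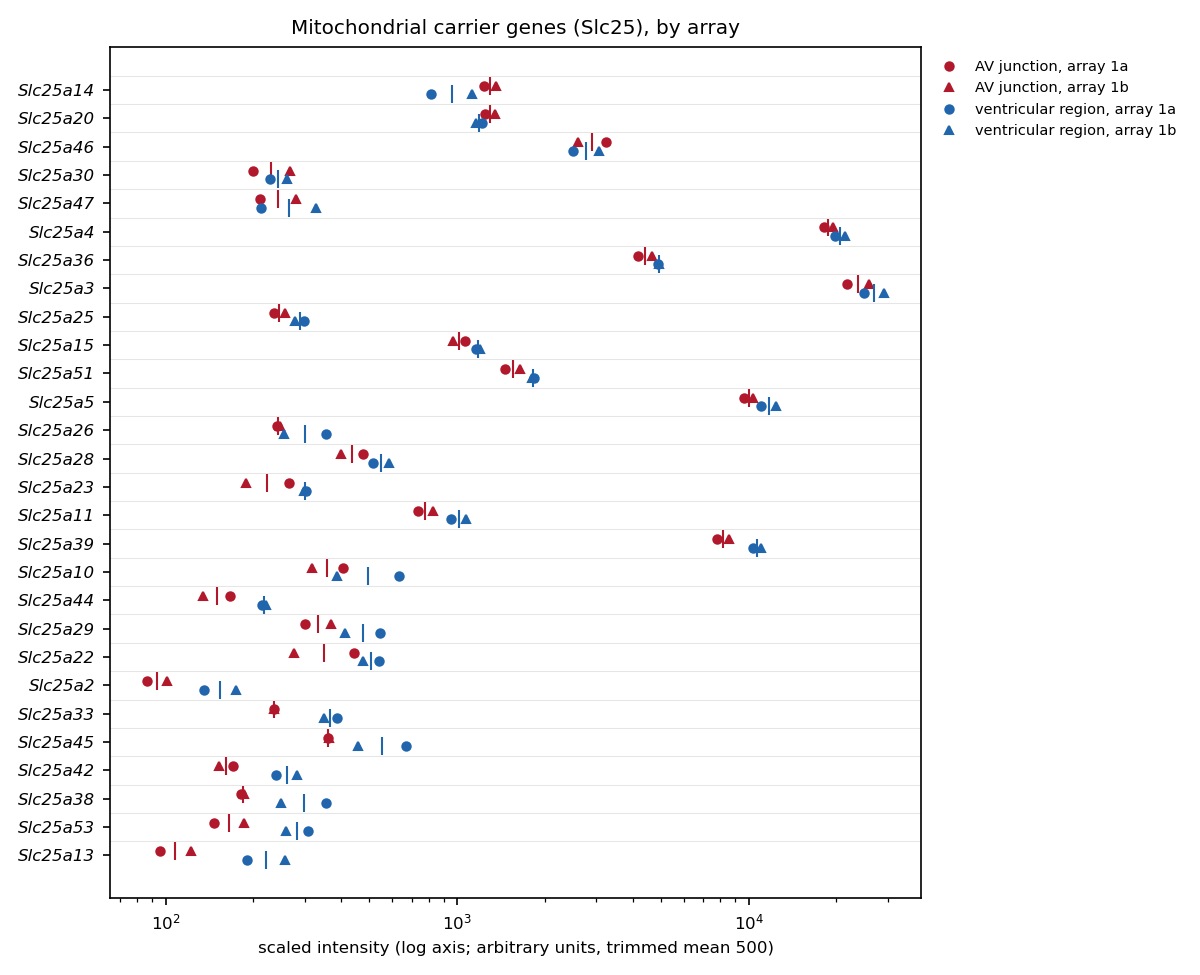
Scaled intensity (log axis, arbitrary units) of the 28 Slc25 genes in order of log2 fold; circles are array 1a, triangles array 1b and bars the geometric mean of 2 arrays, AV junction above and ventricular region below. In 21 rows both AV arrays lie left of both ventricular arrays, and in 2 rows, Slc25a14 and Slc25a20, they lie right of them.

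Amino acid carriers gave a single call. Of 27 members 0 were higher (8.47% of all genes were), 1 (3.7%, against 6.56% of all genes) was lower and 26 did not pass. The group's median log2 fold was −0.18. After quantile normalisation the median was −0.07 with 1 higher and 0 lower, and with the values as deposited 3 of 12 members tested were lower. The median was −0.04 without AV array 1a and −0.06 without ventricular array 1a. The lower gene was Slc7a4, a relative of the carriers for cationic amino acids whose own cargo is not settled. It read 249 and 333 in the AV junction, against 532 and 465 in the ventricular region (log2 fold −0.69, SE 0.18, adjusted p = 0.0429), and in fits that left out 1 array it passed only without AV array 1b (adjusted p up to 0.181 without another array). After quantile normalisation Slc7a4 missed the threshold. Slc38a2, the stress-regulated importer of small neutral amino acids, read 5455 and 5885 in the AV junction, against 4747 and 4614 in the ventricular region. Its arrays did not overlap, and it did not pass (log2 fold 0.27, adjusted p = 0.0881). Slc38a1, a glutamine importer of the same family, went the other way without passing (log2 fold −0.48, adjusted p = 0.056), and Slc38a10 read −0.20 (adjusted p = 0.183).

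Slc3a2, the heavy chain shared by several amino acid exchangers, read 581 and 591 in the AV junction, against 614 and 606 in the ventricular region (log2 fold −0.05, adjusted p = 0.799). Its light chain partners Slc7a6 and Slc7a7 gave 0.28 and 0.51 and did not pass, and a second probe set of Slc7a6 gave −0.11. The creatine carrier gene Slc6a8 read 1121 and 1269 against 1251 and 1219, with overlap (log2 fold −0.05), and the taurine carrier gene Slc6a6 gave −0.67 (adjusted p = 0.0734). All 6 Slc6 genes had log2 folds below 0, against 55.2% of all genes, and none passed. Slc1a5, the glutamine carrier, had the lowest log2 fold of the family at −1.06. It read 116 and 56.3 in the AV junction, against 303 and 169 in the ventricular region, and with arrays so far apart in each region it did not pass (adjusted p = 0.0709).

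Carriers of nucleosides and nucleotide sugars had no gene that passed, where 15% of all genes did. Of the 18 members 15 were Slc35 genes, a family that includes carriers supplying the Golgi with sugars for glycoproteins and proteoglycans. The 18 had a median log2 fold of −0.02 (0.02 after median scaling, and −0.09 to 0.05 with 1 array left out). Their log2 folds ran between −0.39 and 0.46. Slc35a1, which carries the donor of sialic acid, read 1423 and 1226 in the AV junction, against 1315 and 1252 in the ventricular region. Slc35b1 read 762 and 682 against 660.5 and 830.1. Both overlapped between the regions (log2 folds 0.04 and −0.04). Slc35d1, which carries donors for chondroitin sulphate, gave 0.39 (adjusted p = 0.303). The 3 members placed in the vesicle and lysosome group by family number alone, Slc17a3, Slc17a9 and Slc18a1, gave −0.71, −0.48 and −0.47, and none passed.

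Genes that work with the carriers gave 6 calls, over lists fixed with earlier results known. Over all 8410 genes tested 15% passed, 8.47% higher and 6.56% lower. Of 11 genes listed for the sodium pump, whose gradient many carriers use, 7 were found, none of them a catalytic alpha subunit. Among the 6 tested, all of beta subunits or Fxyd proteins, 1 was higher, 0 were lower and 5 did not pass. That gene, Atp1b1, read 9164 and 9802 in the AV junction, against 7130.0 and 7586 in the ventricular region (log2 fold 0.36, adjusted p = 0.0381, passing in no fit that left out 1 array). Of 7 partner proteins, 4 of which are members, 0 passed, the brightest being Nptn, an escort of lactate carriers (log2 fold 0.38, adjusted p = 0.08). Among 12 regulators of transporter genes 0 were higher and 2 lower: Atf4, which drives amino acid carriers under stress (log2 fold −0.57, adjusted p = 0.0309), and Srebf2, the regulator of sterol genes (−1.19, adjusted p = 0.0116). Atf4 passed only without AV array 1a, and Srebf2 only without either AV array. Of 10 partner enzymes 1 was higher, glutamine synthetase gene Glul (0.80, adjusted p = 0.00795), and 1 was lower, hexokinase gene Hk1 (−0.54, adjusted p = 0.0137, passing only without AV array 1a). Of 3 tested genes of the organic anion transporters named Slco, Slco3a1 was higher, with 881.6 and 902 in the AV junction against 419 and 431 in the ventricular region (log2 fold 0.99, adjusted p = 0.00356).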

How the data were processed

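The authors deposited a linear intensity for each probe set on each array, which the submitters' processing notes credit to MAS5. Its version is not given in the sources used here, and no detection calls were used. Per the file headers of the experiment records, the arrays shared chip type, lot and fluidics station, and each ran in a fluidics module of its own. AV arrays ran in modules 1 and 2 and ventricular arrays in modules 3 and 4, so module cannot be told apart from array or from region.

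Scaling brought the 2% trimmed mean of the 22626 probe sets other than controls to 500 on every array, and the 13403 with a mean of at least 100 were fitted on log2 (intensity + 50). Region was the only term of the fit (limma 3.58.1, lmFit and trended eBayes, R 4.3.3). Benjamini-Hochberg adjustment ran over all probe sets tested, and adjusted p-values in the text are limma's. The brightest probe set on average stood for its gene. Symbols are those of the platform annotation, 0 of which changed by Entrez id. Named genes are all members that passed, the 2 brightest of each cargo group that did not, and up to 4 genes of each fixed list. Others were chosen after their values were seen. Members, lists and bins were chosen with earlier results of these data known. Cargo groups follow family numbers. Alternatives changed 1 choice at a time. The fit was tested on simulated data. Figures used matplotlib 3.10.9.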

Additional observations from a re-analysis of the deposited data

How the results depend on the processing

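Slc39a6, Slc24a3 and Slc44a2 passed in every alternative that gave them a value (15, 15 and 14 of them), and Slc12a2 in 14 of 15, missing with eBayes without trend. No called log2 fold changed sign. Lower members that passed fell to 6 with quantile normalisation and with median scaling, each beside 6 higher ones, so that 50% of calls were higher, against 37.5% as reported. Without a floor on intensity, 4 higher and 2 lower members passed, with 439 higher and 272 lower among all genes. With eBayes without trend, 3 higher and 2 lower members passed, with 244 and 209 of all genes. Leaving out 1 array, which leaves a region with a single array taken to vary like the others, gave 4 to 5 higher and 1 to 5 lower members, a median log2 fold of −0.25 to −0.15, and 301 to 369 higher and 167 to 314 lower genes overall. The cause was not tested for any of these settings, the last of which also used fewer arrays. With the letter as a replicate block, 8 members were higher and 16 lower, and 960 genes higher and 854 lower. The labels do not say what the letters share. The deviations of arrays lettered a correlated at 0.0564 between regions, which cannot show whether these arrays shared a processing step. The fits with the values as deposited, other pseudocounts, a floor of 300, a mean over probe sets, or no _x_at and _s_at probe sets gave member counts within 1.5 times those reported, though only 65 members were tested as deposited and 71 with the floor of 300, where 15.3% and 14.7% of all genes were higher and 10.4% and 10.3% lower. Of 62 other probe sets of members, 44 had the sign of the one reported, and of 5 that belong to members that passed, 4 had its sign and 0 passed. The number of arrays limits all precision here, and dim members near the controls (150 of 161 were above them on all 4 arrays) limit it further.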

Other observations

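Solute carrier genes below the intensity limit were 96, and 47 of them read above the Bacillus subtilis control on none of the 4 arrays. None read above it on all 4. The serotonin carrier gene Slc6a4, the kidney chloride carrier gene Slc12a3 and Slc7a5, an amino acid carrier of growing cells, were among the 47. Slc7a1 and Slc7a11, which carry cationic amino acids and cystine, and the intestinal sugar carrier gene Slc5a1 read above it on both AV arrays, and on 0, 1 and 1 ventricular arrays, where the control itself was brighter (58.6 and 52.6 on AV arrays against 97.9 and 104.3 on ventricular arrays). The intensities of Slc7a11 and Slc5a1 overlapped between the regions. These 6 were chosen after their values were seen. Of the 161 members 150 read above the control on all 4 arrays and 160 on both arrays of at least 1 region.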
